A study of Mus musculus with 24 samples.

Results

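Keratins are the intermediate filament proteins of epithelial cells, and 52 of the 24421 genes in the count table of these mouse melanomas are keratin genes. They were taken by name, as every gene whose symbol is Krt followed by a digit, so keratin-associated proteins were left out. Of the 52 genes, 28 encode type I (acidic) keratins and 24 encode type II (basic) keratins. RNA was measured by sequencing in 24 melanomas, 6 from each of the genotypes TN61K/K, TN61L/L, TN61H/H and TN61R/R, and TN61R/R served as the reference. All mice were C57BL/6, carried a Tyr::CreERT2 transgene, which confines the inducible Cre recombinase to melanocytes, and were homozygous for an Nras allele silenced by a stop cassette and altered at codon 61. All 4 genotypes, the reference included, received 20 mM 4-hydroxytamoxifen on the skin on postnatal days 1 and 2, which switches the allele on. Spontaneous tumours were collected when a mouse met the criteria for ending the experiment, and neither the age at collection nor exposure to ultraviolet light is given for single tumours in the labels. Whether every tumour had its own mouse is not in the labels, the titles of TN61H/H replicates 4 and 5 share a number, and the p-values therefore cover the variation among the tumours only. The titles also carry a code, which matches the genotype in TN61K/K, TN61L/L and TN61H/H, while the 6 TN61R/R tumours carry 3 codes, 61K, 61L and 61P, on 2 tumours each. TN61H/H thus shares no code with any other genotype, and code and genotype cannot be told apart in any comparison with TN61H/H. TN61K/K and TN61L/L share no code with each other, and each shares its code with TN61R/R tumours only.

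Keratin filaments are built from pairs of 1 type I and 1 type II chain, and each layer of skin makes its own pair. The basal layer of the epidermis makes Krt5 and Krt14, the layers above it replace them with Krt1 and Krt10, and stressed or wounded epidermis and the outer root sheath of the hair make Krt6a, Krt6b, Krt16 and Krt17. In the growing hair follicle the inner root sheath makes Krt71 to Krt74 with Krt25 to Krt28, and the hair shaft makes the hard keratins. Melanocytes are not epithelial, so the genotypes act in a cell type that is not known as a source of these skin keratins.

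In the build mm10, 27 of the type I genes lie on chromosome 11 between 99233098 (Krt222) and 100269871 (Krt42), and the type II genes lie with the type I gene Krt18 on chromosome 15 between 101349571 (Krt80) and 102032026 (Krt18). Promoter windows from RefSeq (GRCm38.p6) could be matched to 35 of the 52 genes, and the 250 bases before the start were searched on both strands for TATAAA, the core of a TATA box, and for CTTTGAA, a sequence bound by LEF and TCF factors. TATAAA was found in 7 of 7 inner root sheath promoters and 6 of 9 hair shaft promoters, against 12.4% of all 32851 promoters. These counts include Krt72 and Krt84, whose only matches lay on the reverse strand, 203 and 206 bases before the start. CTTTGAA was found in 5 of 9 hair shaft promoters and in 0 of 7 inner root sheath promoters, against 4.46% of all promoters. The type I hair shaft genes are neighbours and closely related, so their matches are not separate events. A match describes the letters only. The following hair shaft stretches, the first 100 of the 250 bases before the start on the minus strand, are shown because this sequence sets them apart from the inner root sheath windows, with CTTTGAA in capitals.
Krt31, chr11:100050702-100050801: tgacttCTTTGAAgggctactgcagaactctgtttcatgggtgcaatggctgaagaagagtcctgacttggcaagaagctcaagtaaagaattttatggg
Krt32, chr11:100088420-100088519: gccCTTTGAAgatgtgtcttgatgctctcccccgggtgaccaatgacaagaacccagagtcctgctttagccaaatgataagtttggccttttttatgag
Krt33b, chr11:100030019-100030118: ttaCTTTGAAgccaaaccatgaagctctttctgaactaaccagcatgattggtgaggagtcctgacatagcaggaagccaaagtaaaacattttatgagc
Krt34, chr11:100041705-100041804: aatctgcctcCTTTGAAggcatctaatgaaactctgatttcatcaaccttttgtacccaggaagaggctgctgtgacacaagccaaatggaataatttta

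The stretches from 100 to 1 bases before the start, also on the minus strand, are shown for 3 inner root sheath genes and for the epidermal Krt10, with TATAAA in capitals.
Krt25, chr11:99322952-99323051: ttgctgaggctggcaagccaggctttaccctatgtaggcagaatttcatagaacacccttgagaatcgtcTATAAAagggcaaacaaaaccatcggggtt
Krt28, chr11:99374904-99375003: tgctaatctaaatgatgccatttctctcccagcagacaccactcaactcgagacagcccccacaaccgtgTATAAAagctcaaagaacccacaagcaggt
Krt71, chr15:101743098-101743197: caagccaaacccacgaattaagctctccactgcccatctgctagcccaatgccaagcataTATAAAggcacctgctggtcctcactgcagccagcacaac
Krt10, chr11:99389365-99389464: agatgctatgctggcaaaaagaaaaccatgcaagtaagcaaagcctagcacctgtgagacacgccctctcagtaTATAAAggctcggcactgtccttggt

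The amount of keratin RNA differed 1099-fold between the tumours with the lowest and the highest share, and each genotype held tumours with much of it and tumours with almost none. Library totals lay between 31.9 and 43.8 M counted reads. The keratin share of these reads lay between 0.00183% and 1.41% in TN61K/K tumours, with a median of 0.248%. It lay between 0.00135% and 0.830% in TN61L/L (median 0.271%), between 0.00139% and 0.713% in TN61H/H (median 0.125%) and between 0.00207% and 1.48% in TN61R/R (median 0.0867%). The ranges overlapped almost entirely. Leaving out 1 tumour moved these medians to between 0.149% and 0.348%, 0.234% and 0.308%, 0.0248% and 0.224%, and 0.0261% and 0.147%, with the low value whenever 1 of the 3 highest tumours was left out and the high value whenever 1 of the 3 lowest was, so the order of the medians is not firm. At least 50000 keratin reads were counted in 15 tumours, 4 TN61K/K, 5 TN61L/L, 3 TN61H/H and 3 TN61R/R, and fewer than 1500 in 6 tumours, 2 TN61K/K, 1 TN61L/L, 2 TN61H/H and 1 TN61R/R. In bulk tissue, fewer keratinocytes and less keratin RNA per keratinocyte cannot be told apart.

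**Figure D1:**
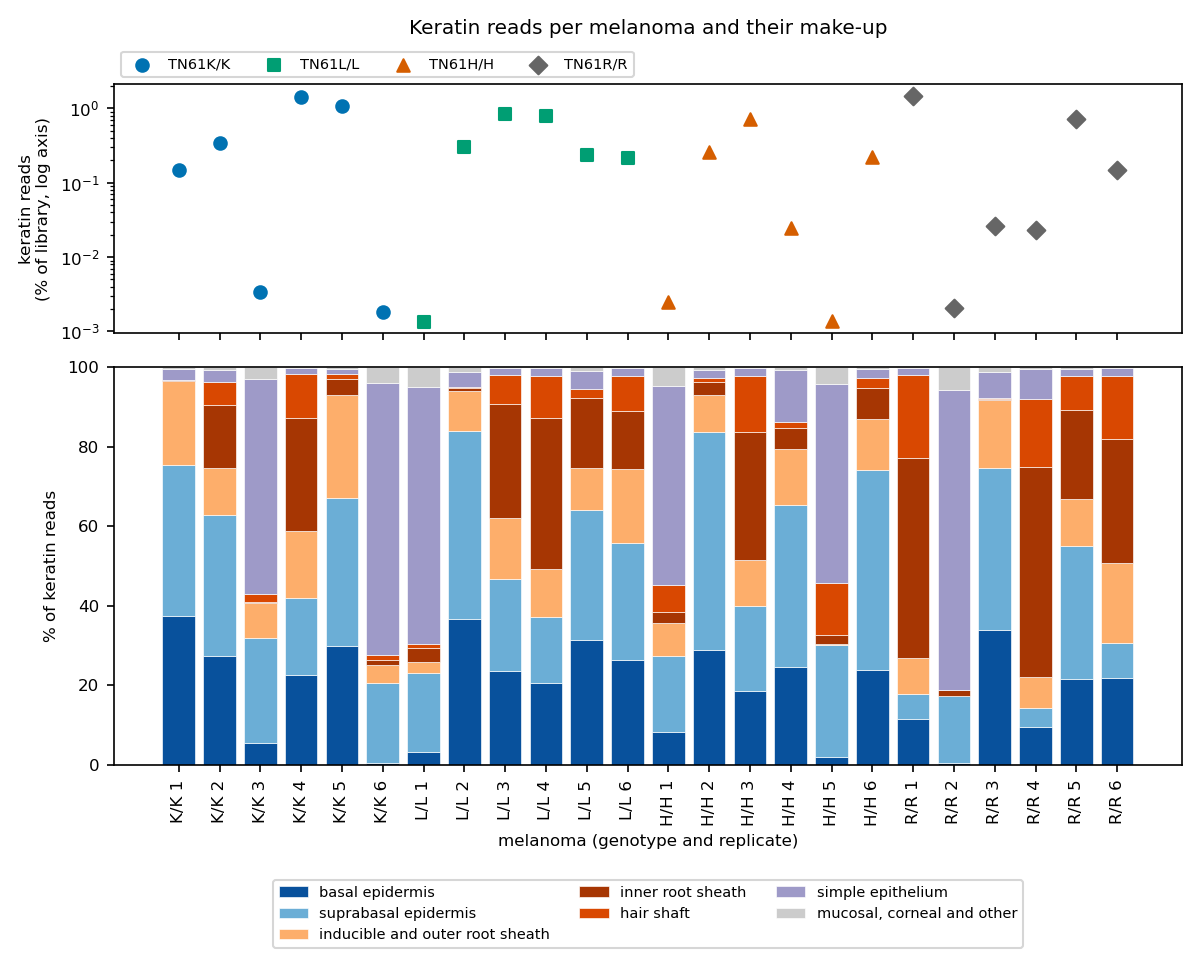
Keratin reads in each of the 24 melanomas (upper panel, % of the library on a log axis) and the share of them in each of 7 keratin groups (lower panel, % of keratin reads), by genotype and replicate. The lowest tumours of the 4 genotypes lie between 0.00135% and 0.00207% and their highest between 0.713% and 1.48%, and simple epithelium keratins take a large part of the few keratin reads in the lowest tumours, where Krt80 alone makes 69.7% to 92.9% of the reads of that group.

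Keratinocyte genes other than keratins also ranged widely within each genotype, and their relation to the keratin share was not tested. The summed level of 12 such markers, among them the desmosome genes Dsg3 and Dsc3 and the cornified envelope genes Ivl and Lor, was 42.3 to 2726 CPM, the counts per 1e6 reads of the scaled library, among TN61K/K tumours, 167 to 1781 CPM among TN61L/L, 66.1 to 1543 CPM among TN61H/H and 73.8 to 2350 CPM among TN61R/R. The sum was 167 CPM in TN61L/L replicate 1, which had the lowest keratin share, and 2350 CPM in TN61R/R replicate 1, which had the highest. Among the 12 markers, Itgb4 went the other way, at 157 and 120 CPM in these tumours. Much of the lowest sums was Itgb4. It stood at 37.5 CPM in TN61K/K replicate 6, whose sum was 42.3 CPM, and at 52.7 CPM in TN61H/H replicate 5, whose sum was 66.1 CPM. In TN61R/R replicate 4 it stood at 35.6 CPM, in a sum of 73.8 CPM. Dsg3 and Ivl were each at 0 in 4 tumours. The pigment cell genes Sox10, at 109.7 to 1049 CPM, and Mitf, at 21.1 to 58.7 CPM, were read in every tumour, while the pigment enzyme gene Tyrp1 was at 0 in 5. The part of adjacent skin in the keratin values was not tested.

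Among the 48 keratins with enough reads to be tested, the spread between tumours of 1 genotype was large. The median within-genotype standard deviation was 3.98 on the log2 CPM scale for these 48 keratins and 0.44 for all 17214 tested genes. It was 5.07 for the basal epidermis keratins, 4.94 for the inner root sheath keratins and 3.86 for the hair shaft keratins, but 1.52 for the simple epithelium keratins. In that last group the value was 1.52 for Krt80 and 3.33 for Krt23. Its members Krt7, Krt8, Krt18, Krt19 and Krt20 had mean levels of 0.978 CPM or less, so their spread rests on few reads. Krt9, Krt13, Krt42 and Krt76 did not pass the filter. Krt9, the keratin of palm and sole, reached 0.157 CPM at most.

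**Figure D2:**
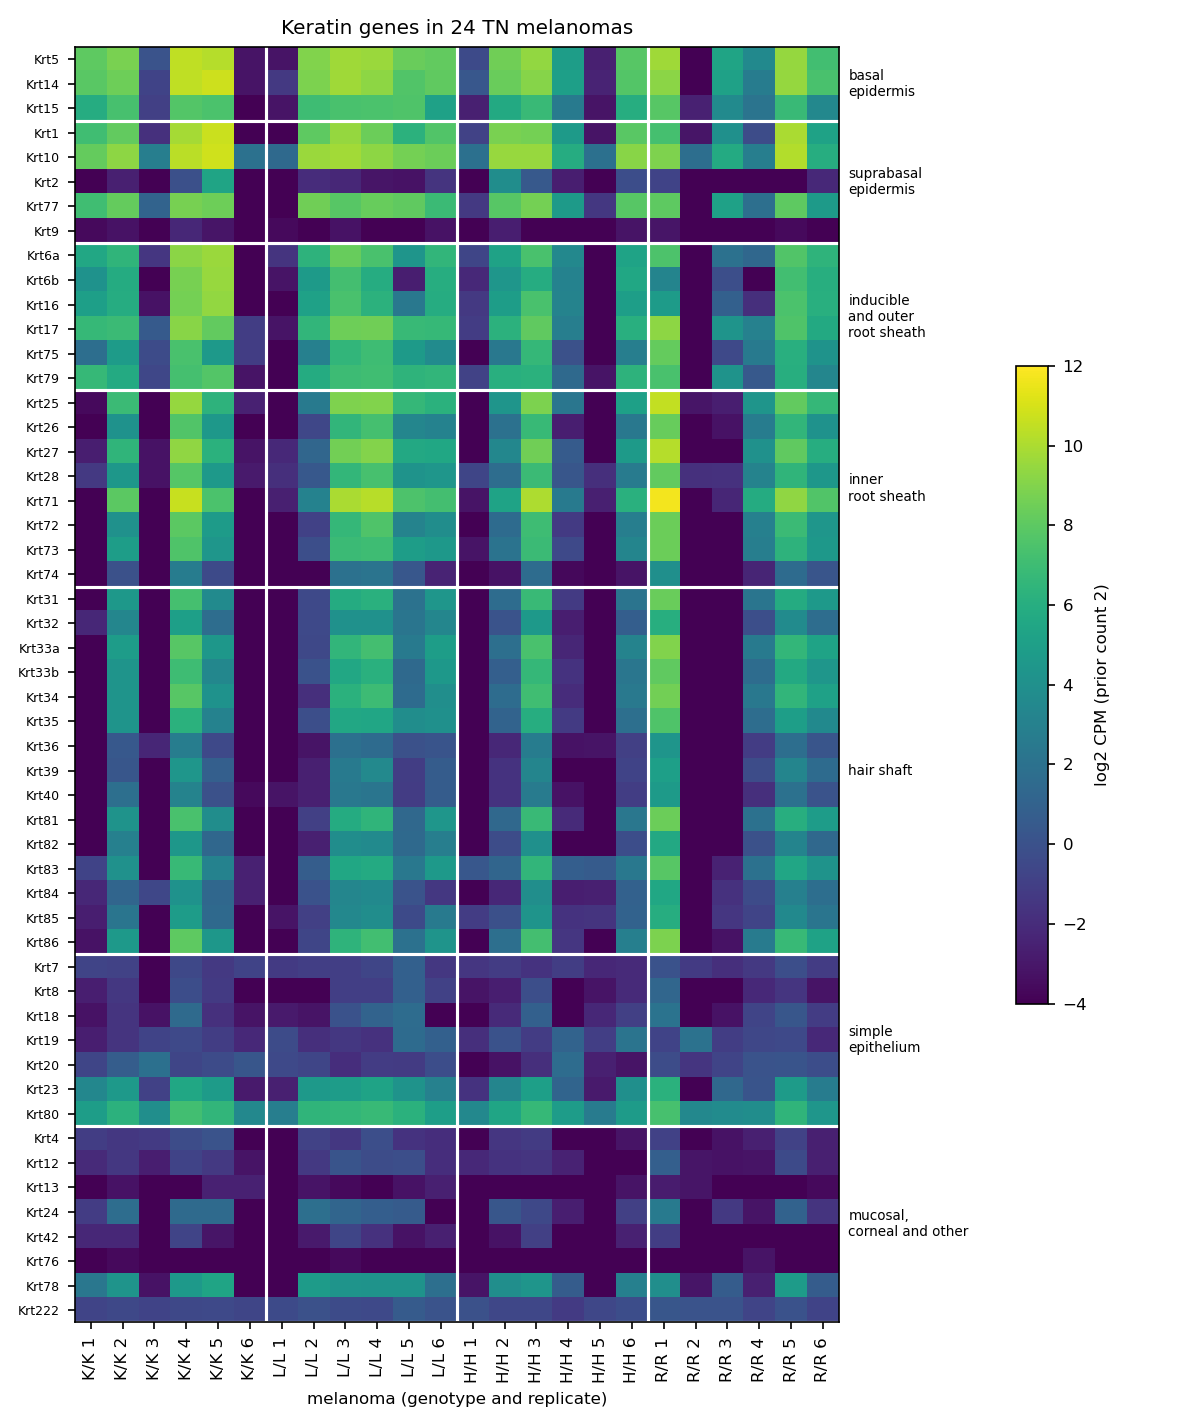
Levels of the 52 keratin genes (rows, grouped by site) in each of the 24 melanomas (columns, by genotype and replicate), as log2 CPM. Epidermal and hair follicle genes switch between near absence and high levels from tumour to tumour, while Krt222 stays nearly even.

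In the basal epidermis, Krt14 had a lowest, median and highest level of 0.0579, 296 and 1774 CPM among TN61K/K tumours. TN61L/L tumours had 0.332, 370 and 837 CPM, TN61H/H tumours 0.137, 120 and 553 CPM, and TN61R/R tumours 0, 103 and 710 CPM. The genotypes overlapped throughout, and the highest tumour was TN61K/K replicate 5. Its partner Krt5 reached 1426, 860, 689 and 852.5 CPM in the highest tumours of TN61K/K, TN61L/L, TN61H/H and TN61R/R, with medians of 345, 415, 130 and 90.6 CPM. Krt15, found in basal cells and in the stem cells of the follicle, had medians of 111, 150, 29.3 and 11.7 CPM in the same order of genotypes.

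In the layers above, Krt10 was read in all 24 tumours, unlike the other main skin keratins. Its lowest, median and highest levels were 3.82, 461 and 1844 CPM among TN61K/K tumours, 2.74, 518 and 870 CPM among TN61L/L tumours, 3.69, 318 and 753 CPM among TN61H/H tumours, and 3.37, 59.0 and 1136 CPM among TN61R/R tumours. Its partner Krt1 was at 0, 0, 0.0546 and 0.0597 CPM in the lowest tumour of TN61K/K, TN61L/L, TN61H/H and TN61R/R, with medians of 213, 233, 134 and 26.5 CPM. Krt77, a suprabasal type II keratin, had medians of 217, 249, 125 and 30.9 CPM. Krt2, a keratin of the uppermost living layers, was singled out after its values were seen. It stood at 40.7 CPM in TN61K/K replicate 5 and 14.2 CPM in TN61H/H replicate 2, and at no more than 1.32 CPM in each of the other 22 tumours.

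Among the inducible and outer root sheath keratins, Krt17 had medians of 113, 107, 37.3 and 36.2 CPM in TN61K/K, TN61L/L, TN61H/H and TN61R/R. Its highest levels were 576, 364, 271 and 632 CPM. Krt6a and Krt16, which are induced together in wounded skin, were highest in TN61K/K replicate 5, at 774 and 692 CPM, and reached 202 and 176 CPM in the highest TN61R/R tumours. Krt6a and Krt6b are near-identical in sequence, so reads may be split between them. The ratio of Krt6b to Krt6a per kb of gene length was nonetheless 0.00513 in TN61L/L replicate 5 and 0.0511 in TN61R/R replicate 1, against 0.579 as the median of the 15 tumours rich in keratin.

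In the inner root sheath, Krt71 spanned 0 to 1642 CPM among TN61K/K tumours (median 88.5), 0.111 to 1259 CPM among TN61L/L (median 165), 0.0570 to 1036 CPM among TN61H/H (median 22.5) and 0 to 3307 CPM among TN61R/R (median 131). The highest value, in TN61R/R replicate 1, stood apart from the next TN61R/R tumour at 663 CPM. The type I partners Krt25 and Krt27 were likewise highest in that tumour, at 1486 and 1184 CPM. Krt28 was read in every tumour, at 0.0516 CPM or more.

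In the hair shaft, Krt33a, a type I keratin of the cortex, was at 0 in 8 of the 24 tumours. Its medians were 10.9, 17.5, 1.88 and 21.9 CPM in TN61K/K, TN61L/L, TN61H/H and TN61R/R, and its highest levels 231, 149, 169 and 506 CPM. Krt34 and Krt86 followed, with highest levels of 389 and 468 CPM in TN61R/R replicate 1. The exons of Krt85 overlap those of Krt83 and Krt81 on the same strand, and whether the counting shared such reads is not given, so the values of these 3 genes are uncertain.

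Epidermal and hair follicle keratins came in different proportions. Inner root sheath and hair shaft keratins together took between 0.0979% and 39.5% of keratin reads in TN61K/K, 0.962% and 48.5% in TN61L/L, 4.25% and 46.3% in TN61H/H, and 0.4995% and 71.2% in TN61R/R. Epidermal keratins with few reads of these follicle keratins were seen in TN61K/K replicate 1, with Krt14 at 236 CPM and Krt71 at 0, and in TN61R/R replicate 3, at 35.2 and 0.153 CPM. Inner root sheath and hair shaft keratins had 18 and 38 reads in the first of these tumours and 22 and 29 reads in the other. In TN61R/R replicate 4 they took 69.9% of keratin reads and the basal epidermis keratins 9.62%, with Krt14 at 6.504 CPM and Krt71 at 56.8 CPM. TN61L/L replicate 2 was also mostly epidermal, at 84.0% of its keratin reads.

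TN61L/L replicate 5 held inner root sheath keratins with few hair shaft keratins. Its ratio of hair shaft to inner root sheath reads per kb was 0.140, the lowest of the 14 keratin-rich tumours with at least 100 reads of these genes, whose median was 0.404. Within the hair shaft group, Krt35, which in human hair appears early in the matrix, made 27.7% of reads per kb there, against a median of 6.59% in these 14. The ratio of Krt31, a later keratin of the cortex in human hair, to Krt35 was 0.305, against a median of 1.66 in 13 tumours. This tumour was singled out after its values were seen, and no test was made.

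Filament partners of skin and hair were closely correlated, although their ratios varied. Keratins of the same site that are not partners were not paired. Whether partners correlate more closely than other keratins of their site was therefore not tested. In the 15 keratin-rich tumours the ratio of all type I to all type II reads per kb lay between 1.14 and 1.24. The ratio of single partners was wider, at 0.787 to 2.00 for Krt14 to Krt5, 1.30 to 6.08 for Krt10 to Krt1 and 0.217 to 1.46 for Krt16 to Krt6a, and at 0.529 to 0.913 for Krt25 to Krt71 in 14 of them. Over all 24 tumours, Krt5 and Krt14 had a Pearson r of 0.99 and a Spearman rho of 0.99 on the log2 CPM scale (permutation p = 1e-05 for each, the smallest that 100000 permutations can give, and 1.33e-05 and 1.6e-05 after adjustment over the 8 pairs computed). Without the 2 tumours farthest from the median of Krt5, r was 1.00 to 2 decimals (0.995). The 6 tumours with fewer than 1500 keratin reads lay apart at the low end, and among the other 18, r was 0.99 (permutation p = 1e-05). Krt1 and Krt10, Krt6a and Krt16, and Krt71 and Krt25 had r of 0.99, 0.98 and 0.99 over 24 tumours, and 0.98, 0.95 and 1.00 (0.998) among the 18. Krt85 and Krt35 of the hair shaft had r of 0.94 over 24 tumours and 0.92 among the 18, with the Krt85 values uncertain because of its overlaps.

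The computed pairs that cross sites, Krt14 with Krt35 and Krt14 with Krt18, were looser, and so was the partner pair Krt8 and Krt18. Other pairs across sites were not computed. Krt14 and the hair shaft keratin Krt35 had r = 0.80 and rho = 0.82 over 24 tumours (permutation p = 2e-05 for each, adjusted 2.29e-05 and 2.67e-05), r = 0.78 without the 2 farthest tumours, and r = 0.56 among the 18 tumours (permutation p = 0.0159). Krt14 and the simple epithelium keratin Krt18 had r = 0.57 and rho = 0.59 (permutation p = 0.00409 and 0.00253), r = 0.50 without the 2 farthest, and r = 0.39 among the 18 (permutation p = 0.11). Krt8 and Krt18, the pair of simple epithelia, had r = 0.82 and rho = 0.74 (permutation p = 1e-05 and 5e-05, adjusted 1.33e-05 and 5.71e-05). For this pair r was 0.74 without the 2 farthest tumours and 0.78 among the 18 (permutation p = 0.00012). Column names came in 2 styles, which may mark batches, and this last relation gave r = 0.91 within the 18 libraries of one style and r = -0.01 within the 6 of the other. Krt14 and Krt35 gave 0.88 and 0.59, Krt14 and Krt18 gave 0.63 and 0.14, and the other 5 pairs gave at least 0.92 within each style.

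**Figure D3:**
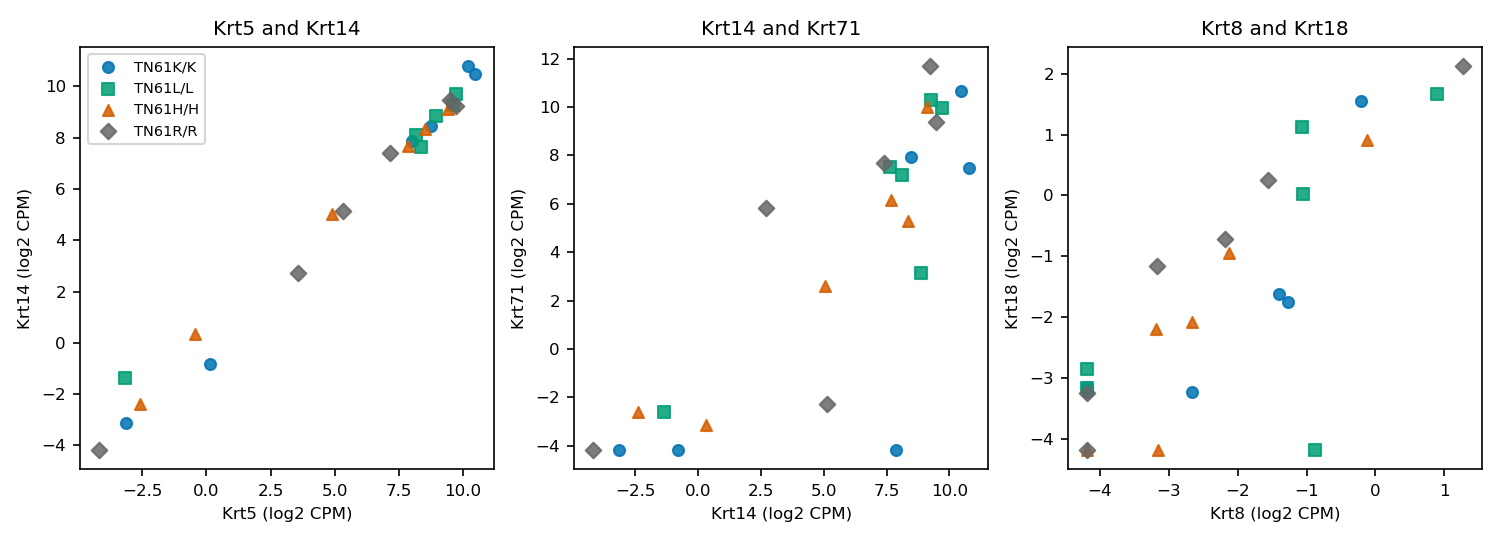
Levels of 3 pairs of keratins in the 24 melanomas, each point a tumour, both axes in log2 CPM. Krt5 and Krt14 lie close to a line, Krt71 varies widely at like levels of Krt14, and Krt8 and Krt18 are low throughout.

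Against this spread, no keratin passed the test in any comparison. With the edgeR quasi-likelihood test and Benjamini-Hochberg adjustment over all genes, 0 of 48 keratins were called at an adjusted p under 0.05 in TN61K/K against TN61R/R, where 0% of all 17214 genes were called. The count was also 0 in TN61L/L against TN61R/R (0% of all genes), in TN61H/H against TN61R/R (2.02%), in TN61H/H against TN61K/K (9.36%), in TN61H/H against TN61L/L (0%), in TN61L/L against TN61K/K (0%) and over the 4 genotypes together (2.72%). At an unadjusted p under 0.05 the edgeR counts were 1, 0, 1, 1, 1, 2 and 1 in that order. The share of all genes at that unadjusted limit is not given here, so these counts are not read as a result about keratins. DESeq2 called 0 keratins in every comparison, where it called 0.0174%, 0.198%, 5.39%, 14.3%, 0.25%, 0.237% and 9.05% of all genes in that order. With limma-voom, which called 0%, 0%, 1.1%, 8.16%, 0%, 0% and 1.44% of all genes, 1 keratin was called, Krt20, lower in TN61H/H against TN61K/K. The count stayed at 0 within the 18 libraries of 1 column name style, where 0% to 0.957% of all genes were called in the pairs and 0.0627% over the 4 genotypes, and with that style as a covariate, where 0% to 8.46% and 2.9% were. The 3 comparisons with TN61R/R share its 6 tumours.

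The intervals were wide, so large differences stayed within them. For Krt14 the log2 fold change was 1.32 ± 1.72 (SE; 95% interval -2.24 to 4.89) in TN61K/K against TN61R/R, 0.66 (-2.86 to 4.18) in TN61L/L and -0.44 (-3.95 to 3.07) in TN61H/H. For Krt10 it was 1.23, 0.80 and 0.29 in the same comparisons, and for Krt17 0.26, 0.19 and -1.10. For Krt71 it was -1.03 (-5.56 to 3.49), -0.71 (-5.20 to 3.79) and -1.88 (-6.50 to 2.75), and for Krt33a -1.20, -1.23 and -1.84. These 5 genes and Krt80 and Krt78 are the members of highest mean level per kb in their groups. The direction of the hair follicle genes rested on TN61R/R replicate 1: without it Krt71 stood at 0.85, 1.19 and 0.00 and Krt33a at 0.69, 0.66 and 0.03.

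**Figure D4:**
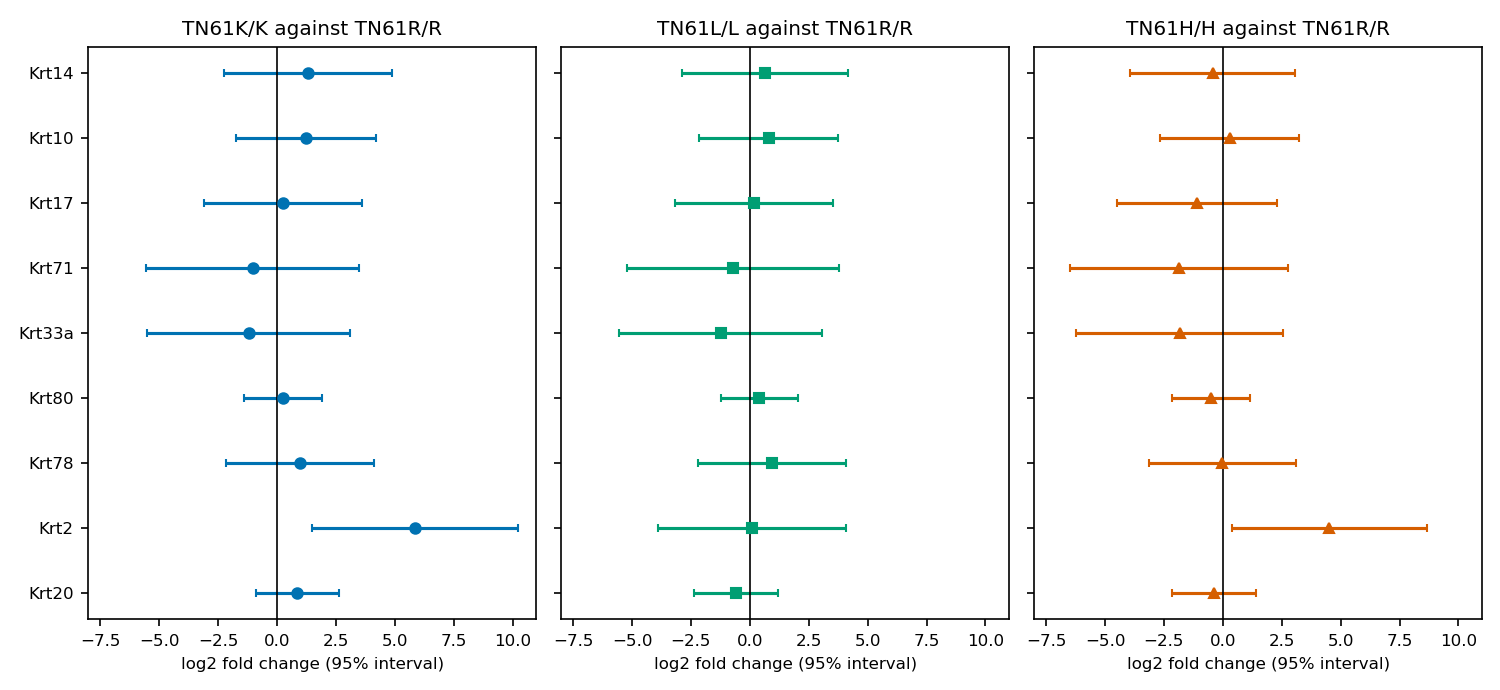
Log2 fold change of 9 keratins in TN61K/K, TN61L/L and TN61H/H against TN61R/R, with 95% intervals from the edgeR fit of all 24 tumours. The intervals include 0 except for Krt2 in TN61K/K and TN61H/H, and no adjusted p was under 0.05.

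As groups, the median log2 fold change of the basal, suprabasal, inducible, inner root sheath and hair shaft keratins was 0.90, 1.27, 1.33, -0.91 and -1.12 in TN61K/K against TN61R/R. It was 0.66, 0.60, 0.39, -0.65 and -1.28 in TN61L/L and -0.44, 0.44, -0.79, -1.87 and -1.80 in TN61H/H. None of their members was called. Without TN61R/R replicate 1 the hair shaft median was 0.73, 0.63 and 0.14 and the inner root sheath median 0.82, 1.07 and -0.14 in the same comparisons, so all but the last of these directions rested on 1 TN61R/R tumour. Other medians also turned when 1 tumour was left out. In TN61H/H the basal median was 0.22 without TN61R/R replicate 1 and 0.060 without replicate 5, and the suprabasal median -0.051 without TN61H/H replicate 3. In TN61L/L the inducible median was -0.24 without TN61L/L replicate 3.

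Krt2 had an interval that left out 0 but did not pass the adjustment. Its log2 fold change was 5.86 ± 2.10 (edgeR adjusted p = 0.774) in TN61K/K against TN61R/R and 4.52 ± 1.99 (adjusted p = 0.261) in TN61H/H. Without TN61K/K replicate 5 the first was 0.72, and without TN61H/H replicate 2 the second was 1.91.

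Krt20, a keratin of gut epithelium that marks Merkel cells in skin, was singled out after its values were seen. It was at 0, 0.0518, 0.229, 3.04, 0.109 and 0.0582 CPM in TN61H/H replicates 1 to 6, against 0.298 to 1.06 CPM in TN61R/R. So 5 of 6 TN61H/H tumours lay below every TN61R/R tumour, and replicate 4 lay above all of them. It stood at 0.570 to 3.66 CPM among TN61K/K tumours and at 0.214 to 0.812 CPM among TN61L/L tumours. Its log2 fold change in TN61H/H was -0.37 against TN61R/R (edgeR adjusted p = 0.894) and -1.23 against TN61K/K (adjusted p = 0.373). Without TN61H/H replicate 4 these were -3.06 (adjusted p = 0.0107) and -3.93 (adjusted p = 0.0021), in fits that called 6.3% and 13.3% of all genes, and all these levels rest on few reads.

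Some members were read in every tumour. Krt80, found in many epithelia, lay at 6.25 to 160.5 CPM, and Krt222 at 0.357 to 1.44 CPM. Krt19, of simple epithelia and the hair follicle bulge, was highest in TN61H/H replicate 6 at 4.48 CPM and in TN61R/R at 4.03 CPM. Krt8 and Krt18 were not read in every tumour. They were at 0 in 7 and 4 tumours and stayed at or below 2.36 and 4.30 CPM. Krt78, of the mucosal and other group, was at 0 in 3 tumours. Its medians were 12.01, 18.3, 4.70 and 1.55 CPM in TN61K/K, TN61L/L, TN61H/H and TN61R/R. The log2 fold changes against TN61R/R were 0.25, 0.41 and -0.50 for Krt80 and 0.97, 0.94 and -0.03 for Krt78.

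**Figure D5:**
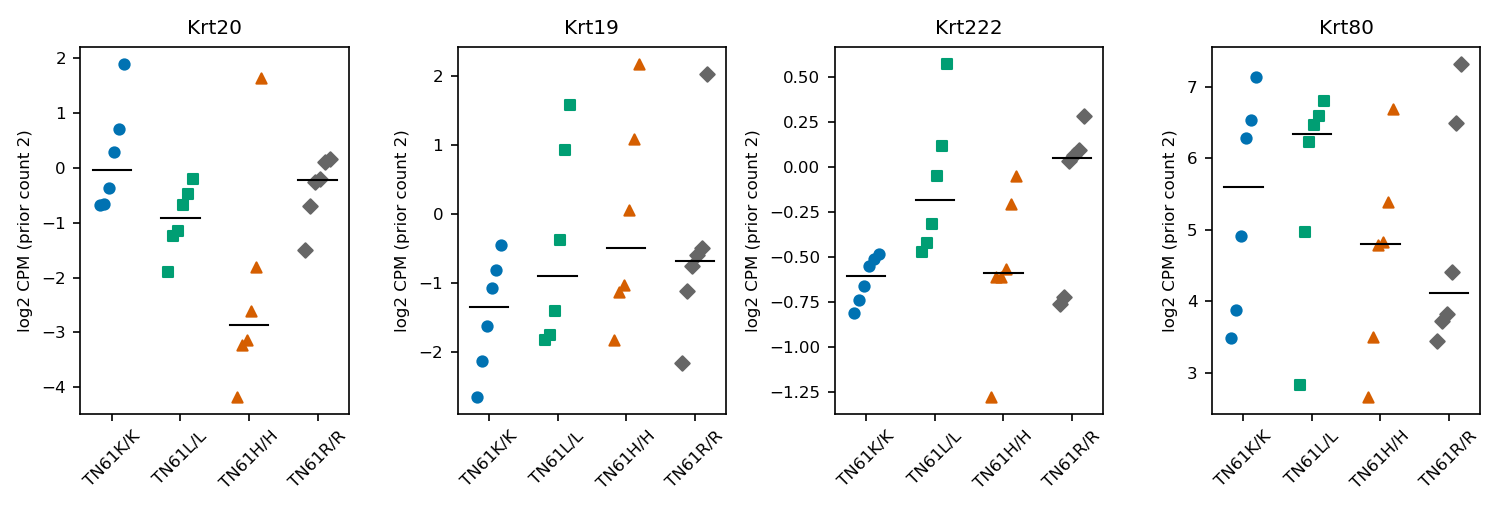
Levels of Krt20, Krt19, Krt222 and Krt80 (log2 CPM) by genotype, each point a tumour, ordered by level within a genotype, with the median as a line. In TN61H/H, 5 of 6 tumours lie below every TN61R/R tumour for Krt20.

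Of 19 regulators of epidermal and hair keratins, 0 were called by edgeR in any pair of genotypes, against 2.02% of all genes in TN61H/H against TN61R/R, 9.36% in TN61H/H against TN61K/K and 0% in the other 4 pairs. In TN61H/H against TN61K/K, 1 regulator had an unadjusted p under 0.05, and the share of all genes at that limit is not given here. The regulators include Trp63, the master regulator of stratified epithelium, at 0.290 to 193 CPM, and the hair shaft regulators Hoxc13 and Foxn1, each at 0 in 6 tumours. Of 10 filament anchors and cross-linkers tested, 1 was called, Dst, a large linker of filaments to the membrane, which was higher in TN61H/H against TN61K/K, where 9.36% of all genes were called. Tchh, which hardens the inner root sheath, ranged from 0.218 to 8443 CPM.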

How the data were processed

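RNA of 24 melanomas was sequenced from rRNA-depleted, stranded libraries per the labels, which also name the molecule polyA RNA. The authors deposited raw read counts per gene with gene lengths. Their notes name featureCounts, Picard 2.17.11 and mm10. The sources used here do not give the strand setting of the counting. Genotypes came from the labels. Replicate numbers follow accession order and pair nothing. Genes were filtered with filterByExpr (17214 kept), scaled by TMM and tested in 1 fit of all 24 libraries with edgeR 4.0.16 (R 4.3.3), and the call threshold was an adjusted p of 0.05. DESeq2 1.42.0 and limma 3.58.1 (voom) were alternatives. Log2 CPM used a prior count of 2. Levels between genes were compared per kb, in tumours with at least 100 reads in all for the genes of a ratio. The scripts were tested on simulated data. Keratins were named as the 3 highest per kb in each of 7 lists plus the genes of the 8 pairs computed. Krt2 and Krt20 are marked as chosen after their values were seen. Krt6b, Krt9, Krt28 and Krt31 were also named outside this rule. Members and lists were chosen with earlier results of these data known. Krt87, Krt90 and Flg were listed but not analysed here.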

Additional observations from a re-analysis of the deposited data

Results flagged for a closer look

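Single tumours that stood far from the other 5 of their genotype were sought with Dixon's test at the 95% level in 100 sets of values, and 12 were found. Chance alone flags about 1 in 20 sets, and the 12 are not independent, since 10 come from 1 tumour.

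TN61L/L replicate 1 was the lowest of its genotype, far below the next, for 9 keratins. These include Krt23 of the simple epithelium group and Krt78 of the mucosal and other group. Its log2 CPM was -1.37 for Krt14, -3.18 for each of Krt5, Krt15 and Krt17, 1.48 for Krt10, -4.18 for each of Krt1, Krt77 and Krt78, and -2.59 for Krt23. Its ratio of type I to type II keratin reads per kb was 0.707, also the lowest. This tumour had 501 keratin reads, and simple epithelium keratins, mostly the type II keratin Krt80, made 64.7% of them. Without the simple epithelium keratins its ratio was 8.54, against 1.17 to 1.26 in the 15 keratin-rich tumours, so the low value rested on that group. TN61H/H replicate 3 was the highest of its genotype for the keratin share of reads, at 0.713%, and for the hair follicle share of keratin reads, at 46.3%.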

How the results depend on the processing

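No paired analysis was possible because replicate numbers only follow the order of the accessions, and the title codes number no pairs. Leaving out each tumour in turn gave 0 to 1 keratins called in TN61H/H against TN61R/R, in TN61H/H against TN61K/K and over the 4 genotypes, and 0 to 0 in the other 4 comparisons. The share of all genes called ranged from 0.38% to 6.3%, from 3.22% to 13.3% and from 0.254% to 5.86% in the first 3, and from 0% to 0.0288% in TN61H/H against TN61L/L. The 1 call was Krt20 without TN61H/H replicate 4, whose fits had the highest of these shares, and limma-voom also called 1 in TN61H/H against TN61K/K (Krt20 log2 fold change -2.99, adjusted p = 0.0258). Against TN61L/L, Krt20 was 0.21, turned to -1.78 with limma-voom, and ranged from -2.47 to 0.47 over single tumours left out. Its ranges were -3.06 to -0.12 against TN61R/R and -3.93 to -0.66 against TN61K/K.

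Directions that turned were all of genes not called. Over single tumours left out, the ranges against TN61R/R in TN61K/K, TN61L/L and TN61H/H were -3.04 to 0.85, -1.38 to 1.19 and -4.87 to 0.00 for Krt71 (highest 0.00173), -3.39 to 0.69, -2.08 to 0.66 and -5.38 to 0.035 for Krt33a, and -0.55 to 1.70, -0.16 to 1.63 and -2.29 to 0.33 for Krt17. They were -1.15 to 0.20 for Krt14, -0.078 to 1.56 for Krt10, -1.16 to 0.25 for Krt80 and -0.66 to 1.01 for Krt78 in TN61H/H, -0.17 to 1.02 for Krt80 in TN61K/K and -0.28 to 1.78 for Krt2 in TN61L/L. With column name style as a covariate, Krt14 in TN61H/H was 0.0129, Krt78 in TN61H/H 0.48 and Krt71 in TN61L/L 0.16. With limma-voom, Krt71 and Krt33a in TN61L/L were 1.56 and 0.62. With the title code as a covariate, Krt10 and Krt71 in TN61L/L were -0.18 and 0.26, Krt17 and Krt80 in TN61K/K -0.81 and -0.48, and Krt2 in TN61L/L against TN61K/K 0.54. In the 18 libraries of 1 style, Krt10 in TN61H/H was -0.14 and Krt2 in TN61L/L -0.54. The cause was not tested.

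In the same 18 libraries the TN61K/K medians of the keratin share and of the hair follicle share were 1.08% and 21.5%. By reads in place of reads per kb, the type I to type II ratio was 0.948 in both TN61L/L and TN61R/R. Within the other 6 libraries Krt8 and Krt18 had r = -0.0062. The correlations among tumours with at least 1500 keratin reads were chosen after seeing the data. Limits are the few reads behind Krt2 and Krt20 and the spread between tumours.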
